A study of Mus musculus with 18 samples.

Results

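Wild-type (WT) mature interstitial macrophages (matIMs) were compared with WT monocyte-derived macrophages (moMs) of the mouse lung, the end points of a series of 3 populations sorted by the surface proteins MHC-II and Ly6C. The comparison rested on 6 bulk RNA-seq libraries, 3 per population, out of 18 in all. The remaining 12 libraries came from WT transitional interstitial macrophages (tnsIMs) and from the same 3 populations of mice that lack ezrin in monocytes and macrophages (Ezr-KOm). WT mice carried the B6.Cx3cr1tm1.1(cre)Jung/J allele and intact *Ezr*, so the controls express Cre from the Cx3cr1 locus too, and Ezr-KOm mice carried the same allele with floxed *Ezr*. Mice were of both sexes, 3 to 5 months old and on a C57BL/6 background. Every mouse had been exposed to nebulized lipopolysaccharide (LPS) of Pseudomonas aeruginosa, 12.5 mg in 5 ml over 15 min. This is the amount nebulized, and the dose inhaled is not stated. Lungs were taken 24 h later after perfusion, so no unexposed library enters any value. The Cx3cr1 promoter that drives Cre is also active in some other leukocytes. Within CD45+ CD11b+ cells, moMs were sorted as MHC-II- Ly6C+, tnsIMs as MHC-II+ Ly6C+ and matIMs as MHC-II+ Ly6C-. The genes for the gating proteins are therefore a check of the sort and not a finding.

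Monocytes that express Ly6C enter the inflamed lung from the blood and can turn into macrophages of the lung tissue. Interstitial macrophages lie between the airspaces and the vessels, carry MHC-II and take up material and dying cells. Lung cells that carry MHC-II and CD11b also include dendritic cells, which present antigen to T cells and, once mature, move to the lymph node along gradients of CCL19 and CCL21 through the receptor CCR7. In bulk samples such as these, a lower share of cells of one type and less RNA per cell cannot be told apart.

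The 6 libraries held 18443205 to 25924018 counts in genes, and on the first principal component, which held 93.27% of the variance of the 500 most variable genes, matIMs and moMs lay at opposite ends. Genes of the sort followed the gates. Levels are given in CPM, counts scaled to the size of each library. *Ly6c2* was at 69.1, 33.1 and 51.3 CPM in matIMs and 487, 469.8 and 488 CPM in moMs, and *H2-Aa* at 7307, 6827 and 5689 CPM in matIMs and 414, 647 and 576 CPM in moMs. *Itgax*, which encodes CD11c, was at 714, 613 and 644 CPM in matIMs and 256, 291 and 259.7 CPM in moMs (edgeR, log2 fold change 1.29, SE 0.17, adjusted p = 1.68e-05). The study's methods describe the sort as made on CD11c- cells, and whether these levels of *Itgax* came with cells outside the intended gate was not tested.

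The matIM label was checked against 28 markers of interstitial macrophages, and the markers did not move as a set. 9 were higher in matIMs and 11 lower, at an adjusted p under 0.05 in edgeR, and their median log2 fold change was -0.05, beside 0.01 over all tested genes. Genes called higher made up 13.4% and genes called lower 11.4% of all tested genes. *C1qa*, *C1qb* and *C1qc*, which encode the chains of complement C1q, were higher, with *C1qa* at 307, 381 and 235 CPM in matIMs and 106, 79.8 and 89.3 CPM in moMs (edgeR, log2 fold change 1.74, SE 0.27, adjusted p = 7.67e-05). The mannose receptor *Mrc1* was higher as well (0.97), at 69.2, 90.2 and 74.1 CPM in matIMs and 52.9, 38.9 and 27.8 CPM in moMs, and so was the B cell and macrophage lectin *Cd72* (2.65). In contrast, *Csf1r*, the receptor through which macrophages are kept alive, was at 1362, 1430.3 and 1627 CPM in matIMs and 2199.6, 2852 and 2663 CPM in moMs (edgeR, log2 fold change -0.80, SE 0.12, adjusted p = 8.68e-05). The lipoprotein *Apoe* (-1.57), the Fc receptor *Fcgr1* (-1.14) and *Lyve1* (-1.24) were lower too. The summed level of the 28 markers was 5190 to 6116 CPM in matIMs and 7106 to 8586 CPM in moMs. All 20 markers of classical monocytes, in turn, were lower in matIMs than in moMs. *Ly6c2* is among them and follows the Ly6C gate, and the lists were chosen with earlier results of these data known. Both labels are kept here as the names of the gates.

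In total, 15811 of 21254 genes passed the filter on low counts and 3926 were called, 2116 higher (13.4%) and 1810 lower (11.4%) in matIMs. The counts of called members in each list below are to be read beside these shares. By fitted values 616 genes were higher by a log2 fold change of at least 3, and 76 were lower by as much. Of the genes called higher, 374 had at most 3 counts in every moM library, and 39 of the genes called lower had as few in every matIM library, and their fitted values depend on the prior count of the fit. With these genes set to the lower bound that a floor of 3 counts per library gives, 472 were higher and 58 lower by at least 3 on the log2 scale. The limits used in the study (unadjusted p under 0.05 and absolute log2 fold change above 0.75) gave 2078 genes higher (13.1%) and 1529 lower (9.67%). The 3 matIM values lay above all 3 moM values for 22.2% of the tested genes and below them for 19.3%. Scaling by library totals in place of TMM gave 2500 genes higher and 1384 lower and moved the median log2 fold change of all genes to 0.11, while no called gene changed direction.

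**Figure D1:**
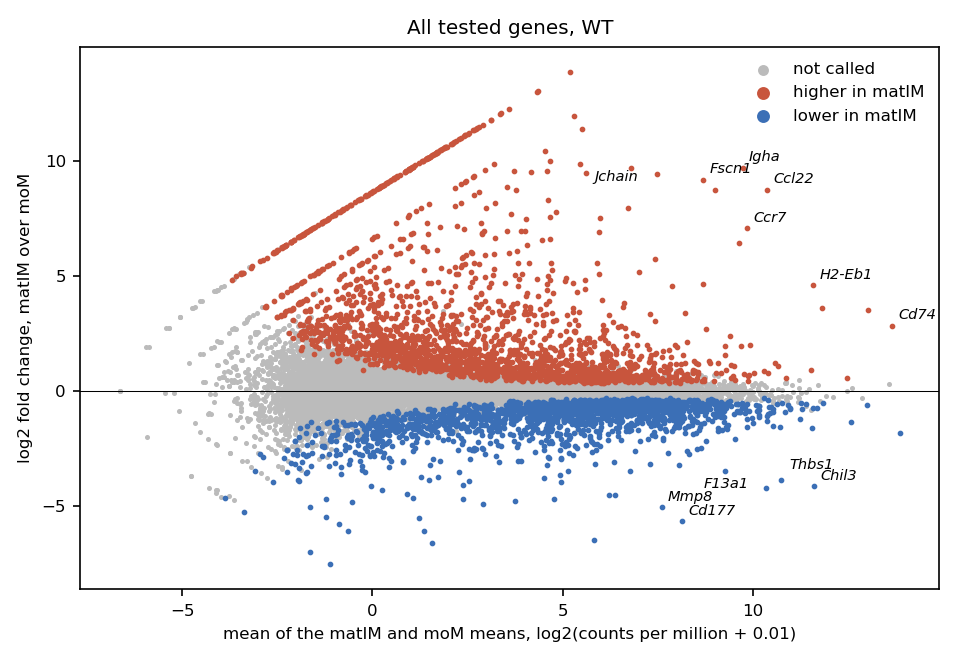
Log2 fold change of matIMs over moMs against mean level in CPM (log2) for the 15811 tested genes of WT mice. Genes higher in matIMs (2116) are in red and genes lower in matIMs (1810) in blue, and the straight diagonal rows of points are genes with no or nearly no counts in moMs, whose fitted values depend on the prior count.

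Genes of MHC class II presentation, which loads peptides for CD4+ T cells, were mostly higher in matIMs. 13 of 17 members were higher and 2 lower, and since MHC-II protein was part of the gate the direction of the chain genes is given by the sort. The gate did not measure the genes that act on peptide loading. Cells sorted by MHC-II protein may differ in these genes too, so their direction is not independent of the sort. *H2-DMb2* (ENSMUSG00000037548, chromosome 17, 34362281 to 34370529, plus strand), a chain of the DM peptide exchanger, was at 475, 449 and 414 CPM in matIMs and 18.6, 19.6 and 18.2 CPM in moMs (edgeR, log2 fold change 4.57, SE 0.17, adjusted p = 3.21e-12). *H2-DMb1* is a close copy of it and reads may be divided between the pair. *H2-Oa* and *H2-Ob*, whose products restrain DM in B cells and dendritic cells, were higher with log2 fold changes of 5.07 and 4.44. *Ciita*, the coactivator that turns the class II genes on, was at 151, 203 and 233 CPM in matIMs and 24.5, 35.9 and 42.9 CPM in moMs (edgeR, log2 fold change 2.5, SE 0.31, adjusted p = 6.86e-06). The members that were lower were the protease *Ctss*, which trims the invariant chain (-0.52), and *Marchf1*, a ligase that removes MHC-II from the surface (-0.63). Each of these genes separated the 3 matIM from the 3 moM libraries without overlap. In Ezr-KOm mice, whose cells were sorted by the same gates, the same counts were 13 higher and 2 lower.

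Class II promoters are known to share a Y box with the core CCAAT. The 6 promoters printed here belong to class II genes that were higher together, and show where those letters lie. Whether each match is a Y box was not tested. Each run is the 130 bases before the start of the canonical transcript, 5′ to 3′ on the strand of the gene in GRCm39, with every CCAAT or its reverse complement ATTGG in capitals.
H2-Aa (chr17:34506798-34506927, minus strand): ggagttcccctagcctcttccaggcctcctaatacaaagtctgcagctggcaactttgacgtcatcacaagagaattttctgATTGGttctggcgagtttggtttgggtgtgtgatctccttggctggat
H2-Ab1 (chr17:34482053-34482182, plus strand): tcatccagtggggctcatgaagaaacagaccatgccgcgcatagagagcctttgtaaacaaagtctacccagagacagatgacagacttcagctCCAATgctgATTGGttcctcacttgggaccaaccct
H2-Eb1 (chr17:34524683-34524812, plus strand): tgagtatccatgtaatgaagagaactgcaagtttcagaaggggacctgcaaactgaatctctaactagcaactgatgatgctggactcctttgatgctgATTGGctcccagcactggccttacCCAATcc
H2-Eb2 (chr17:34544503-34544632, plus strand): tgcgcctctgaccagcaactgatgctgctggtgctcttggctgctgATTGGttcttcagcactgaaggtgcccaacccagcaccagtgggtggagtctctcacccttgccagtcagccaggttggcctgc
H2-DMa (chr17:34354430-34354559, plus strand): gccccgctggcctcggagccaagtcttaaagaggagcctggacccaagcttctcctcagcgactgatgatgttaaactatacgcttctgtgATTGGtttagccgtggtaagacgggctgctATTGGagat
H2-DMb2 (chr17:34364044-34364173, plus strand): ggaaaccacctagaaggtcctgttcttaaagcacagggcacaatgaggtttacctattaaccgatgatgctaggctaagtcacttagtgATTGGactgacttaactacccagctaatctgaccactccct
In a window from 250 bases before to 50 bases after the start, CCAAT was found on either strand in 11 of the 17 class II members tested (64.7%) and in 38.2% of 15754 promoters of tested genes. It was in 38.9% of promoters of genes called higher and in 35.8% of those called lower. Sites of the form GGANTTTCC or GGANTTCCC, known from NF-kappaB, were in 4.03% of promoters of genes called higher, 2.89% of those called lower and 2.91% of all. TATAAA was in 10.5% of promoters of genes called higher, 9.49% of those called lower and 9.78% of all. GAAANNGAA (8.24%, 9.22% and 8.61% of promoters higher, lower and all), TTCNNNGAA (7.95%, 7.83% and 7.63%), TGAGTCA or its complement TGACTCA (4.03%, 4.78% and 4.01%), GGAAGT (22.6%, 27.6% and 26.0%) and TTGCGCAA (0.142%, 0.278% and 0.254%) were searched too, all on both strands. These matches describe the letters only.

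Genes of mature migratory dendritic cells were mostly higher in matIMs. 31 of 38 listed genes were higher in matIMs and 1 was lower, with a median log2 fold change of 1.92. *Ccl22* (ENSMUSG00000031779, chromosome 8, 95472218 to 95478327, plus strand), a chemokine that draws regulatory T cells, had the smallest p of all genes. It was at 2605, 3092 and 2202 CPM in matIMs and 5.69, 6.38 and 6.38 CPM in moMs (edgeR, log2 fold change 8.74, SE 0.29, adjusted p = 6.03e-13). *Ccr7* (ENSMUSG00000037944, chromosome 11, 99035022 to 99045903, minus strand), the receptor for migration to lymph nodes, was at 1945, 2019 and 1481 CPM in matIMs and 16.3, 14.3 and 9.76 CPM in moMs (edgeR, log2 fold change 7.08, SE 0.31, adjusted p = 1.62e-11). *Fscn1* (ENSMUSG00000029581, chromosome 5, 142946098 to 142958940, plus strand), which bundles actin in the processes of dendritic cells, was at 614, 1019.5 and 839 CPM in matIMs and 1.02, 1.37 and 1.81 CPM in moMs (edgeR, log2 fold change 9.17, SE 0.41, adjusted p = 1.62e-11). In all 3 genes every matIM library stood far above every moM library. *Ccl17*, which binds the same receptor as *Ccl22*, was at 1677, 2048 and 964 CPM in matIMs and 15.9, 25.1 and 14.4 CPM in moMs, a log2 fold change of 6.4. *Cacnb3*, a calcium channel subunit, was at 139.5, 282 and 244 CPM in matIMs and 0.228, 0.207 and 0.354 CPM in moMs, and the apolipoprotein L gene *Apol7c* at 53.7, 113 and 128 CPM in matIMs and 0, 0.0414 and 0.315 CPM in moMs. Smaller differences were found for the costimulatory genes of the list, *Cd83* (0.91), *Cd40* (1.17), *Cd80* (0.80) and *Cd86* (0.78), which moMs also carried in quantity, with *Cd86* at 326, 336 and 291 CPM in matIMs and 212, 176 and 166 CPM in moMs. The cytokine subunit *Il12b* was at 357, 308 and 256 CPM in matIMs and 49.2, 11 and 51.1 CPM in moMs, with moM library 2 below the other moM libraries and no overlap.

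**Figure D2:**
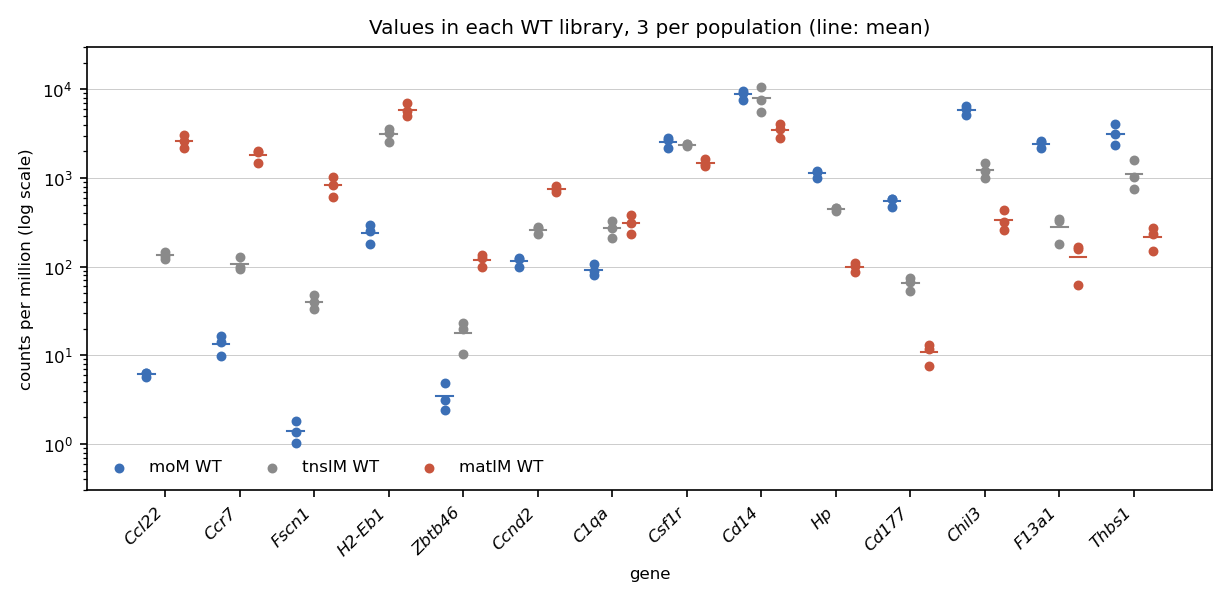
CPM on a log scale in each WT library for 14 genes, with moMs in blue, tnsIMs in grey, matIMs in red and a line at each mean. *Ccl22*, *Ccr7* and *Fscn1* were higher in all 3 matIM libraries (log2 fold changes 8.74, 7.08 and 9.17), while *Hp*, *Cd177*, *Chil3*, *F13a1* and *Thbs1* were lower in all 3 matIM libraries.

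Genes of conventional dendritic cells were also higher, 18 of 26, with 2 lower. *Zbtb46* (ENSMUSG00000027583, chromosome 2, 181029555 to 181101219, minus strand), a transcription factor that marks the lineage of conventional dendritic cells, was at 100.2, 125 and 134 CPM in matIMs and 2.39, 4.93 and 3.15 CPM in moMs (edgeR, log2 fold change 5.09, SE 0.30, adjusted p = 1.07e-09). The growth factor receptor *Flt3* was at 92, 141 and 147 CPM in matIMs and 28.4, 37.7 and 37.8 CPM in moMs (1.87), and *Irf4*, needed by the subset that carries CD11b, at 127, 106 and 116 CPM in matIMs and 17.7, 16 and 14.8 CPM in moMs (2.85). *Mgl2* and *Cd209a*, lectins of that subset, rose by 5.74 and 4.64 on the log2 scale. Of the other subset, *Clec9a* was higher (2.13) at under 5 CPM in every library, and *Xcr1*, at 3.95, 3.08 and 4.25 CPM in matIMs and 8.94, 4.89 and 4.96 CPM in moMs, was not called (edgeR, adjusted p = 0.136). With the replicate number as a block *Xcr1* was lower (-0.68, adjusted p = 0.0387 by edgeR). *Itgae* and *Batf3*, also on this list, were higher, with values given below among the integrins and the transcription factors. The lower members were *Sirpa* (-0.57) and the lysosomal *Ppt1* (-1.14), and 4 were lower with the replicate block. The summed level of the 26 genes was 5057 to 5801 CPM in matIMs against 3490 to 3790 in moMs, and that of the 38 mature genes 16470 to 22390 against 5521 to 6469. By the study's methods dendritic cells were set apart among CD11c+ cells by high CD24 and no CD64, and the populations were sorted from the CD11c- fraction. The share of these differences that came with dendritic cells within the MHC-II+ Ly6C- gate was not tested.

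The genes of classical monocytes ran the other way, with a median log2 fold change of -2.38 over the 20 members and a summed level of 11160 to 13030 CPM in matIMs against 48350 to 54020 in moMs. *Cd177* (ENSMUSG00000052212, chromosome 7, 24443408 to 24459736, minus strand), a surface protein first known from neutrophils, was at 7.49, 13.2 and 11.9 CPM in matIMs and 473, 586 and 587 CPM in moMs (edgeR, log2 fold change -5.66, SE 0.38, adjusted p = 4.28e-09). *Hp* (ENSMUSG00000031722, chromosome 8, 110301760 to 110305804, minus strand), which encodes the hemoglobin-binding protein haptoglobin, was at 101, 87.2 and 109 CPM in matIMs and 1004, 1159 and 1210.5 CPM in moMs (edgeR, log2 fold change -3.5, SE 0.15, adjusted p = 1.42e-11). *Chil3*, a chitinase-like lectin of monocytes and alveolar macrophages, was at 432, 261 and 321 CPM in matIMs and 5178, 6039.8 and 6496 CPM in moMs (edgeR, log2 fold change -4.13, SE 0.32, adjusted p = 2.64e-08). No matIM library reached a moM library for any of them. *F13a1*, a transglutaminase that cross-links fibrin, was at 61.6, 167 and 159.9 CPM in matIMs and 2163, 2559 and 2608 CPM in moMs (-4.24), with matIM library 1 below the other 2. The collagenase *Mmp8* (-5.05), the proteoglycan *Vcan* (-4.51) and the coagulation factor *F5* (-4.7) were lower as well. Genes of detoxification were among those with the smallest p, with *Mgst1* at 19.9, 16.7 and 16.8 CPM in matIMs and 197, 189 and 214 CPM in moMs (-3.49) and *Gstm1* at 40.9, 31.7 and 33.4 CPM in matIMs and 137, 149 and 131 CPM in moMs (-1.98). The nonclassical monocyte markers were split, 4 higher and 7 lower of 14, with *Adgre4* (-1.27), *Treml4* (-1.18) and *Ace* (-1.08) lower and *Cd300e* (1.06) higher. Those called higher were 2 without matIM library 2, without matIM library 3 or without moM library 2.

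Genes for the detection of bacterial products were more often lower than higher in matIMs. Of 25 genes of LPS sensing, 14 were lower and 1 higher, and the median log2 fold change was -0.58. The coreceptor *Cd14* was at 4035, 3589 and 2799 CPM in matIMs and 9175, 9517 and 7579 CPM in moMs (edgeR, log2 fold change -1.33, SE 0.19, adjusted p = 4.18e-05). *Tlr4*, the LPS receptor itself, was at 27.4, 32.3 and 36.1 CPM in matIMs and 92.9, 98 and 96.5 CPM in moMs (-1.58), and its partner *Ly96*, which encodes MD-2, at 11.9, 16.3 and 11.8 CPM in matIMs and 23.7, 19.1 and 19.9 CPM in moMs (-0.65). The LPS-binding protein gene *Lbp* was below 1 CPM in each matIM library and at 8.48, 10.9 and 7.4 CPM in moMs. *Tlr2* (-1.03), *Tlr7* (-1.73) and *Tlr13* (-1.56) were lower, and *Tlr12*, at under 5 CPM in matIMs, was the member that was higher (2.48). It missed the threshold without matIM library 3 (1.86, adjusted p = 0.0973 by edgeR) and without moM library 1 or 2. It also missed in a fit of the 9 WT libraries alone (2.47, adjusted p = 0.0514 by edgeR). Among 31 inflammasome and cell death genes 12 were lower, such as *Nlrp3* (-0.83), *Naip5* (-1.22) and the pyrin gene *Mefv* at 82.1, 88.3 and 102 CPM in matIMs and 263, 274 and 213 CPM in moMs. The 3 that were higher were the survival genes *Bcl2* (1.14), *Bcl2a1b* (1.06) and *Bcl2a1d* (0.93), the Bcl2a1 genes being near-identical copies whose reads may be divided. *Bcl2a1b* missed the threshold without matIM library 1 (0.82, adjusted p = 0.0541 by edgeR) and *Bcl2a1d* without moM library 3 (0.84, adjusted p = 0.0527 by edgeR).

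Some interferon-stimulated genes and inflammatory cytokines were lower in matIMs. Of 44 interferon-stimulated genes 9 were lower and 0 higher by edgeR, and 14 passed an unadjusted p under 0.05 in either direction. The number lower was 23, with 3 higher, when the replicate number was taken as a block, and 20 in a fit of the 6 libraries alone. *Oas2* was at 54.1, 50.2 and 69.2 CPM in matIMs and 119, 146 and 112 CPM in moMs (-1.12) and *Ifi204* at 138, 137 and 149 CPM in matIMs and 367, 361 and 373 CPM in moMs (-1.38). The Slfn family, induced by interferon and cell activation, was lower in 6 of 7 members, led by *Slfn4* at 58.7, 50.9 and 62.7 CPM in matIMs and 293, 256 and 184 CPM in moMs (-2.09). In the Ifi200 family 6 of 10 members were lower, while of 11 guanylate-binding protein genes 0 were higher and 0 lower. Of 31 inflammatory cytokines and inhibitors, 6 were lower (19.4%) and 3 higher (9.68%), beside 11.4% and 13.4% of all tested genes, and 13 were lower with the block. *Il6* was at 193, 162 and 131 CPM in matIMs and 361, 508 and 537 CPM in moMs (edgeR, log2 fold change -1.54, SE 0.22, adjusted p = 3.46e-05), and *Csf3*, which encodes the growth factor of neutrophils, at 8.2, 15.5 and 8.16 CPM in matIMs and 55.7, 59 and 53 CPM in moMs (-2.39). *Osm* was lower (-1.0). *Tnf* ranged from 386 to 696 CPM in matIMs and from 356 to 654 CPM in moMs and did not pass the test (edgeR, adjusted p = 0.978).

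Chemokines and their receptors moved both ways. 4 of 14 CC chemokines were higher and 6 lower. The summed level of the group was 9420, 10150 and 6405 CPM in matIMs 1 to 3 and 8863, 6526 and 6103 CPM in moMs 1 to 3, so that the ranges overlapped while matIMs were the higher of each same-numbered pair. Beside *Ccl22* and *Ccl17*, *Ccl5*, which attracts T cells and NK cells, was at 527, 721 and 387 CPM in matIMs and 77.9, 26.6 and 54.2 CPM in moMs (3.37). The ligands of CCR2 that call in monocytes were lower, with *Ccl2* at 605, 637 and 436 CPM in matIMs and 1734, 1399.5 and 1269 CPM in moMs (edgeR, log2 fold change -1.39, SE 0.22, adjusted p = 1.04e-04) and *Ccl7* with a log2 fold change of -1.02. *Cxcl16* was at 997, 884 and 875 CPM in matIMs and 365, 280.1 and 305 CPM in moMs (1.54) and the B cell attractant *Cxcl13* at 130.3, 319.8 and 178 CPM in matIMs and 1.02, 0.622 and 0.945 CPM in moMs (7.93). 5 of 15 CXC chemokines were higher, and 8 with the block. Of 29 receptors 6 were higher and 9 lower. Those of blood monocytes were among the lower ones, *Ccr2* at 588, 739.7 and 792 CPM in matIMs and 1443, 1534 and 1746 CPM in moMs (-1.16), *Ccr1* (-1.31), *Cx3cr1*, whose locus carries Cre (-1.2), and the C5a receptor *C5ar1* at 354, 342 and 321 CPM in matIMs and 1054, 996 and 822 CPM in moMs (-1.5). *Cxcr5*, the receptor for CXCL13, was at 42.4, 30.5 and 29.5 CPM in matIMs and 1.2, 0.539 and 0.512 CPM in moMs (5.56), and *Gpr183*, a receptor for oxysterols that guides dendritic cells and B cells, at 227, 264 and 228 CPM in matIMs and 55.3, 76.8 and 74.2 CPM in moMs (1.8).

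Ligands that act on T cells followed a similar split. 10 of 19 were higher and 3 lower. *Pdcd1lg2*, which encodes the PD-1 ligand PD-L2, was at 32.9, 30.6 and 24.9 CPM in matIMs and 4.5, 2.36 and 1.26 CPM in moMs (3.47), and *Tnfsf4*, the OX40 ligand, at 7.94, 5.04 and 4.02 CPM in matIMs and 0.683, 0.373 and 0.197 CPM in moMs (3.8). *Cd70* had no counts in any moM library and was at 4.21, 4.53 and 3.06 CPM in matIMs, at least 28.5-fold higher against a floor of 3 counts per library. The inhibitory *Vsir* was lower, at 125, 166 and 194 CPM in matIMs and 382, 518 and 521 CPM in moMs (-1.55), as was *Tnfsf14* (-2.41). Of 17 NF-kappaB subunits and regulators 5 were higher and 4 lower, with a median log2 fold change of -0.07. *Relb*, the subunit tied to dendritic cell maturation, was at 260.1, 319 and 271 CPM in matIMs and 107, 102 and 99.4 CPM in moMs (edgeR, log2 fold change 1.46, SE 0.14, adjusted p = 2.67e-07), and *Nfkb1* was higher (0.63), while the kinase *Ikbke* (-1.13) and the coregulator *Bcl3* (-0.65) were lower. Of the 7 Traf adaptors 4 were higher, *Traf1* at 752, 627 and 577 CPM in matIMs and 309, 302 and 228 CPM in moMs (1.22). 7 of 19 genes of MHC class I presentation were higher, among them *H2-Q6* (1.64), *H2-Q7* (1.2) and the immunoproteasome gene *Psmb8* (0.84), with the H2-Q genes being close copies. That number was 3 to 4 without matIM library 1 or 3 or any 1 moM library. *H2-Q7* missed the threshold without matIM library 3 (0.97, adjusted p = 0.0789 by edgeR) and without moM library 1 or 2.

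**Figure D3:**
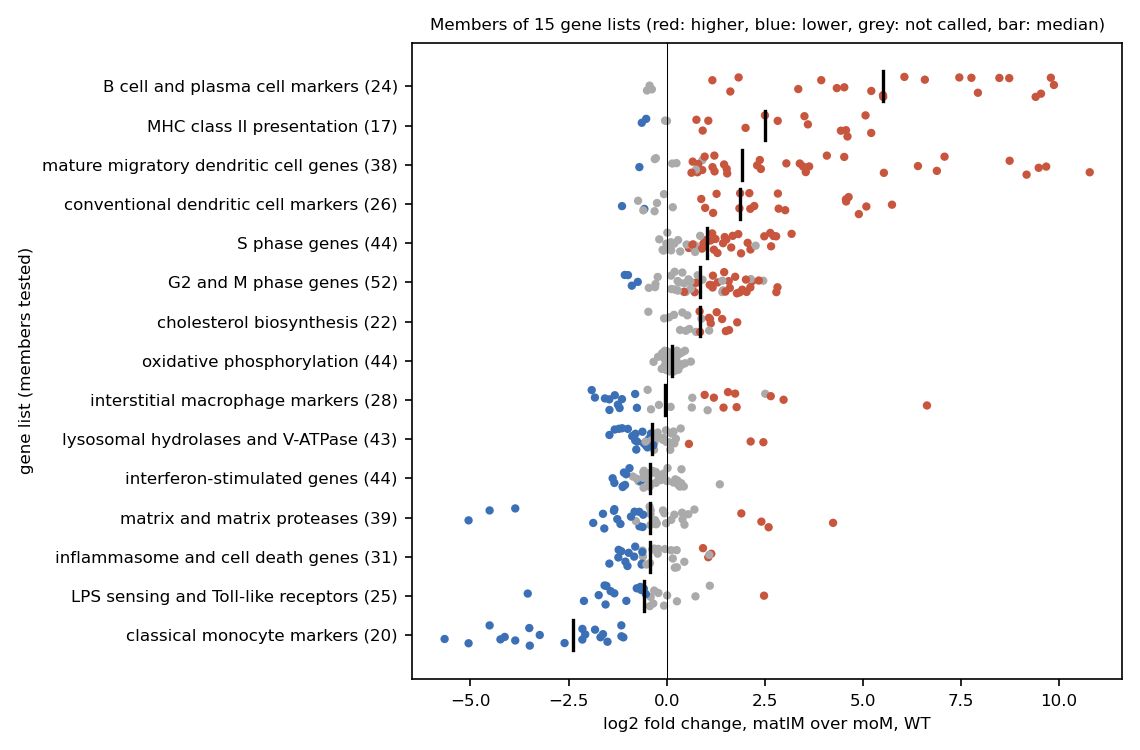
Log2 fold change of matIMs over moMs for each tested member of 15 gene lists, in red where called higher, in blue where called lower and in grey where not called, with a bar at the list's median. The medians run from 5.51 for B cell and plasma cell markers (4.43 with genes at their lower bound) to -2.38 for classical monocyte markers, and no gene of oxidative phosphorylation was called.

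Complement, Fc and uptake receptors moved both ways. Of 19 complement genes 6 were higher and 7 lower, with *C3* at 201, 138 and 208 CPM in matIMs and 498, 629 and 636 CPM in moMs (edgeR, log2 fold change -1.69, SE 0.22, adjusted p = 1.43e-05) and *C4b* at 5.01, 4.31 and 8.09 CPM in matIMs and 25.4, 46.6 and 57.3 CPM in moMs (-2.89) against the 3 chains of C1q. Of 12 Fc receptors 6 were higher and 2 lower, 5 with the block, and 1 was higher among those with at least 10 counts in each of the 6 libraries. The lower ones were *Fcgr1* and *Fcgr3*, activating receptors for IgG, with *Fcgr3* at 565, 557 and 533 CPM in matIMs and 1283, 1369 and 1212 CPM in moMs (-1.22), and *Fcgrt*, the neonatal receptor, was higher (0.96). 7 of 23 scavenger and efferocytosis receptors were higher and 10 lower. *Axl*, a receptor for dying cells, was at 953, 869 and 968 CPM in matIMs and 466, 361 and 469 CPM in moMs (1.11), *Marco* at 42.3, 122 and 56.9 CPM in matIMs and 1.94, 4.02 and 2.44 CPM in moMs (4.7) and *Timd4*, which binds phosphatidylserine, at 20.9, 16.6 and 18.1 CPM in matIMs and 0.399, 0.0414 and 0.157 CPM in moMs (6.63). *Msr1* was at 273, 276 and 264 CPM in matIMs and 958, 908 and 813 CPM in moMs (edgeR, log2 fold change -1.72, SE 0.15, adjusted p = 8.51e-08), and *Lrp1* (-1.41) and *Cd93* (-1.89) were lower. The C-type lectins moved both ways, 10 higher and 8 lower of 26. *Clec10a* was at 146, 192 and 149 CPM in matIMs and 17, 27.3 and 24 CPM in moMs (2.83) and *Ly75*, which encodes DEC-205, was higher (2.58), while *Clec4e*, the receptor Mincle, was at 968, 605 and 703 CPM in matIMs and 2667, 1935 and 1872 CPM in moMs (-1.51).

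Degradation and matrix genes were more often lower than higher. 18 of 43 lysosomal genes were lower and 3 higher. *Ctsc*, which activates serine proteases, was at 1427, 1417 and 1469 CPM in matIMs and 3345, 3439 and 3236 CPM in moMs (edgeR, log2 fold change -1.22, SE 0.15, adjusted p = 6.77e-06), and *Ctsb* (-0.75), *Ctsl* (-1.32) and the membrane protein *Lamp2* (-1.14) were lower too. *Ctsk* (2.14) and the proton pump subunit *Atp6v0d2* (2.46), both known from osteoclasts, were higher. Of 39 matrix genes 16 were lower and 4 higher. *Thbs1*, which encodes thrombospondin, was at 270.3, 236 and 149 CPM in matIMs and 4029.5, 3135 and 2327 CPM in moMs (edgeR, log2 fold change -3.86, SE 0.33, adjusted p = 8.55e-08), and fibronectin, *Fn1*, at 1775, 1009 and 1645 CPM in matIMs and 4435, 4583 and 4622 CPM in moMs (-1.62). The elastase *Mmp12* was at 482, 435 and 303 CPM in matIMs and 116, 122 and 88.3 CPM in moMs (1.9) and *Mmp25* at 49, 55.4 and 48 CPM in matIMs and 3.25, 2.11 and 2.76 CPM in moMs (4.24), both higher. Among genes of arginine use and polarisation 9 of 22 were lower and 5 higher. Arginase, *Arg1*, was at 74.6, 52.1 and 47.6 CPM in matIMs and 463, 362 and 315 CPM in moMs (-2.71), while *Retnla*, another gene linked to alternative activation, was at 36.4, 41.5 and 21.2 CPM in matIMs and 0.968, 0.29 and 0.0787 CPM in moMs (6.34). The iron transporter *Slc11a1* was lower (-1.11), and lipid genes were split, with the fatty acid carrier *Fabp5* higher (1.79) and *Trem2* (-1.32) and *Spp1* (-1.33) lower.

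Genes of DNA replication were higher in matIMs. 27 of 44 S phase genes were higher and 0 lower, with a median log2 fold change of 1.02, and 23 of 52 G2 and M phase genes were higher and 4 lower. With at least 10 counts required in each of the 6 libraries, the G2 and M phase genes called higher were 13. *Mcm6*, a subunit of the replicative helicase, was at 123, 98.2 and 129 CPM in matIMs and 26, 27.8 and 30.1 CPM in moMs (edgeR, log2 fold change 2.06, SE 0.17, adjusted p = 5.53e-08). *Mcm2* (2.13), *Mcm5* (1.82) and *Uhrf1*, which keeps DNA methylation through replication (3.18), were higher too. Summed over the list, G2 and M phase genes were at 959, 1038 and 1065 CPM in matIMs and 1050, 1131 and 1194 CPM in moMs, lower in matIMs for each of the 3 library numbers. The summed S phase genes were at 1200, 1086 and 1278 CPM in matIMs and 719, 724 and 716 CPM in moMs. Of the mitotic genes called higher, *Cdk1* was at 3.9, 3.5 and 3.47 CPM in matIMs and 1.08, 1.28 and 0.866 CPM in moMs (1.75), *Birc5* at 4.03, 4.4 and 3.24 CPM in matIMs and 0.171, 0.87 and 0.551 CPM in moMs (2.82) and *Top2a* at 10.9, 14 and 11.7 CPM in matIMs and 4.04, 4.81 and 3.39 CPM in moMs (1.58). *Mki67*, which marks cycling cells, was at 28.1, 28.9 and 26.8 CPM in matIMs and 22.6, 17.8 and 21.2 CPM in moMs and did not pass the test (edgeR, adjusted p = 0.193; 0.0433 in a fit of the 6 libraries alone). G2 and M phase genes called lower, the nuclear envelope genes *Lbr* (-0.99) and *Tmpo* (-1.07) among them, numbered 4, and 2 were lower without matIM library 2. *Ccnd2*, a D-type cyclin of the entry into the cycle, was at 809.8, 752 and 691 CPM in matIMs and 125, 99.9 and 121 CPM in moMs (edgeR, log2 fold change 2.7, SE 0.18, adjusted p = 4.35e-09) and *Ccnd1* at 77, 67.6 and 59.5 CPM in matIMs and 16.1, 7.13 and 10.4 CPM in moMs (2.61). The inhibitor *Cdkn2d* was lower (-1.58) and *Cdkn2b* higher (3.77).

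Metabolic genes differed in a few steps. 10 of 22 genes of cholesterol synthesis were higher and 0 lower, and 18 were higher with the replicate block. The number was 6 without matIM library 2, moM library 1 or moM library 3. *Hmgcs1* was at 62.9, 112 and 86.3 CPM in matIMs and 30.1, 49.7 and 39.8 CPM in moMs (1.12), *Pmvk* at 63, 54.3 and 49 CPM in matIMs and 26.4, 27.6 and 23.5 CPM in moMs (1.1) and the regulator *Srebf2* was higher (0.84). Of 44 genes of oxidative phosphorylation 0 were called in either direction by edgeR and 3 passed an unadjusted p under 0.05, and by DESeq2 0 were higher and 0 lower. With the replicate block 3 were higher and 1 lower. Glycolysis had 3 higher (12%) and 7 lower (28%) of 25, beside 13.4% and 11.4% of all tested genes. *Pfkp* was at 856, 799 and 779 CPM in matIMs and 446, 469 and 386 CPM in moMs (0.90). *Ldhb*, one of the subunits of lactate dehydrogenase, was at 6.83, 3.12 and 7.68 CPM in matIMs and 41.6, 44.1 and 47 CPM in moMs (-2.91). *Kmo*, an enzyme of the kynurenine branch of tryptophan use, was at 174, 197 and 177 CPM in matIMs and 12, 14 and 13.4 CPM in moMs (edgeR, log2 fold change 3.8, SE 0.20, adjusted p = 2.35e-10).

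The 51 transcription factors listed divided into 12 higher and 16 lower. Those of monocytes and macrophages were among the lower ones, *Cebpb* at 956, 978 and 598 CPM in matIMs and 1727, 1872 and 1842 CPM in moMs (-1.1), *Cebpd* (-0.98), *Maf* (-1.46), *Tfec* (-1.67) and *Zeb2* at 159.8, 173 and 205 CPM in matIMs and 417, 381 and 414 CPM in moMs (-1.17). *Spib*, known from plasmacytoid dendritic cells and B cells, was at 21.5, 24.5 and 23 CPM in matIMs and 0.285, 0.207 and 0.0787 CPM in moMs (6.95), and *Stat4* at 21.7, 30.6 and 21.5 CPM in matIMs and 7.4, 5.26 and 5.0 CPM in moMs (2.07). *Bhlhe40* was at 2542, 2097 and 1871 CPM in matIMs and 1296, 1033 and 759 CPM in moMs (1.08) and *Batf3*, a factor of conventional dendritic cells, was higher (1.27). Cytokine receptors were more often lower, 11 against 5 higher of 26, with *Tnfrsf1a* at 149, 149 and 152 CPM in matIMs and 347, 421 and 417 CPM in moMs (-1.4) and *Il17ra* (-1.45) lower and *Il7r* at 63.2, 54.9 and 47.3 CPM in matIMs and 14.2, 13.2 and 10.9 CPM in moMs (2.11) and *Il21r* (1.4) higher.

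The cytoskeleton and adhesion were compared because the study is on ezrin, which ties membrane proteins to actin. *Ezr* was at 741, 632 and 611 CPM in matIMs and 504, 593 and 497 CPM in moMs, higher in each matIM library than in any moM library, and was not called (edgeR, log2 fold change 0.32, SE 0.24, adjusted p = 0.38). With the replicate number as a block its log2 fold change was 0.31 and its adjusted p 0.0481. *Msn* and *Rdx*, the relatives of ezrin, overlapped between the populations (-0.11 and 0.15). Of 23 integrin genes 10 were lower and 5 higher. *Itgal*, a chain of LFA-1, was at 214, 251 and 340.0 CPM in matIMs and 514, 701 and 677 CPM in moMs (-1.23), *Itgb5* at 167, 156 and 182 CPM in matIMs and 335, 362 and 342 CPM in moMs (-1.04), and *Itga5* (-0.67) and *Itga1* (-1.78) were lower. *Itgae*, a chain of the receptor for E-cadherin, was at 6.07, 10.6 and 9.13 CPM in matIMs and 0.342, 0.497 and 0.236 CPM in moMs (4.57), and *Itgb8*, which activates TGF-beta, at 1.46, 5.47 and 2.68 CPM in matIMs and 0.228, 0.414 and 0 CPM in moMs (3.9). The integrins called higher were 3 without matIM library 2 or without moM library 3. E-cadherin itself, *Cdh1*, was at 215, 263 and 236 CPM in matIMs and 61.6, 115 and 66.2 CPM in moMs (1.55). Of 43 genes of actin and migration 11 were higher (25.6%), 7 without matIM library 1, and 5 lower (11.6%), 8 with the block. Over all tested genes 13.4% were higher and 11.4% lower, so the share lower was near that of all genes. The median log2 fold change of the list was -0.06. The small GTPase *Rhof*, which forms filopodia, was at 40.3, 39.3 and 39.98 CPM in matIMs and 4.27, 5.64 and 5.28 CPM in moMs (edgeR, log2 fold change 2.97, SE 0.20, adjusted p = 4.28e-09), and *Myo1f* was lower (-0.96).

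Outside these groups, the genes of smallest p that were higher included *Tbc1d4*, a GTPase activator that controls the transport of glucose carriers, at 209, 298 and 236 CPM in matIMs and 6.49, 6.42 and 7.91 CPM in moMs (edgeR, log2 fold change 5.15, SE 0.21, adjusted p = 6.93e-12), and *P2ry10*, a receptor for lysophospholipids, at 96.3, 103 and 78.3 CPM in matIMs and 3.81, 3.15 and 2.91 CPM in moMs (4.82). *H2-M2*, a class I gene outside the classical set, was at 98.2, 168 and 111 CPM in matIMs and 1.02, 0.58 and 0.512 CPM in moMs (7.52), and *Klrd1*, which encodes the receptor CD94 of NK cells, at 54.8, 52.3 and 47.6 CPM in matIMs and 1.88, 1.41 and 0.827 CPM in moMs (5.26). The LIM domain gene *Csrp1* (2.75) and *Trp53i11* (3.89) were higher too. All of these were separate between the populations in every library. Among the genes lower in matIMs, *Smpdl3a*, a phosphodiesterase related to acid sphingomyelinase, was at 106, 108 and 115 CPM in matIMs and 550.2, 672 and 661 CPM in moMs (edgeR, log2 fold change -2.52, SE 0.14, adjusted p = 3.59e-10). *Plcb1*, a phospholipase C downstream of G protein receptors, was at 4.26, 3.33 and 3.5 CPM in matIMs and 65.9, 56.1 and 52.4 CPM in moMs (-3.97), and the small GTPase *Rhou* at 7.85, 4.83 and 4.81 CPM in matIMs and 71.5, 67.5 and 54.5 CPM in moMs (-3.47). *Arhgef37* (-4.53), *Rab36* (-4.89), *Tmem38b*, a potassium channel of the endoplasmic reticulum (-2.27), the sulfide oxidase *Sqor* (-1.78) and *AB124611* (-1.62) were lower as well. *Ms4a8a* (-2.21) belongs to the Ms4a family, of which 2 members were higher and 6 lower of 11.

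Transcripts of other cell types moved with the comparison. Immunoglobulin genes were 0.379 to 0.578% of the counts of matIMs and 0.0105 to 0.0164% of those of moMs, and 139 of 148 tested variable genes, 10 of 11 constant genes and 9 of 9 joining genes were higher. *Igha*, the heavy chain of IgA, was at 1668, 2083 and 1331 CPM in matIMs and 2.56, 2.36 and 1.3 CPM in moMs (edgeR, log2 fold change 9.69, SE 0.54, adjusted p = 4.04e-10), and *Jchain* at 317, 457 and 294 CPM in matIMs and 0.512, 0.539 and 0.512 CPM in moMs (9.4). Of the variable genes, *Igkv1-110* was at least 533-fold, *Ighv1-81* at least 566-fold, *Iglv1* at least 662-fold and *Ighv5-16* at least 368-fold higher against the floor of 3 counts per library, and the light chain constant gene *Iglc1* was at 94.4, 73.5 and 95.1 CPM in matIMs and 0, 0.166 and 0.0787 CPM in moMs. Immunoglobulin variable genes are close copies among which reads may be divided. 21 of 24 B cell and plasma cell markers were higher (5 among those with at least 10 counts in each of the 6 libraries), with *Cd79a* at 72.5, 51.3 and 46.4 CPM in matIMs and 0.399, 0.331 and 0.0787 CPM in moMs and *Ms4a1* at 42, 29 and 27.4 CPM in matIMs and 0.399, 0 and 0.197 CPM in moMs. *Cxcr5*, *H2-Ob* and *Spib*, named above, are known from B cells too, and the part of B cell and plasma cell RNA in their values was not tested. Without immunoglobulin genes in the scaling, 2075 genes were higher and 1841 lower. Of 29 T and NK cell markers 6 were higher, 1 was lower and 22 were not called. Their summed level was 688 to 975 CPM in matIMs and 141 to 238 CPM in moMs. Their median log2 fold change was 0.35 and the largest was 3.37, the value given for *Ccl5* above, so the sum can rest on few members. The T cell receptor genes *Cd3e* and *Trac* overlapped, with *Cd3e* at 2.26, 2.01 and 2.76 CPM in matIMs and 2.62, 1.74 and 1.81 CPM in moMs. Alveolar macrophage markers had 13 higher and 2 lower of 19. Some defining ones were at low levels, such as *Siglecf* at 9.22, 8.37 and 6.82 CPM in matIMs and 1.25, 2.61 and 1.69 CPM in moMs and *Ear1* at 1.11, 2.86 and 1.38 CPM in matIMs and 0, 0.124 and 0.236 CPM in moMs. *Marco*, also a defining one, was at the higher levels given above. The summed level of the alveolar macrophage markers, of which *Chil3* is part, was 1802 to 2170 CPM in matIMs and 6104 to 7278 CPM in moMs. Of 18 epithelial markers 9 were higher, with *Sftpc*, the surfactant protein of type 2 cells, at 122, 103 and 118 CPM in matIMs and 23.9, 13.9 and 17.7 CPM in moMs, and its mean in tnsIMs was 1315 CPM. 11 of 15 endothelial markers were lower, with *Cdh5* at 2.57, 1.62 and 3.43 CPM in matIMs and 7.29, 8.2 and 5.43 CPM in moMs. Neutrophil markers had 9 higher and 4 lower of 20, with those higher at 5 without matIM library 2 and 4 without moM library 3. The summed level of the neutrophil markers went the other way, 1009 to 1172 CPM in matIMs and 1906 to 2247 CPM in moMs. *S100a8* overlapped at 69.5, 80.2 and 61.2 CPM in matIMs and 72.2, 39.5 and 43.8 CPM in moMs. The part of these cells in the other results was not tested.

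**Figure D4:**
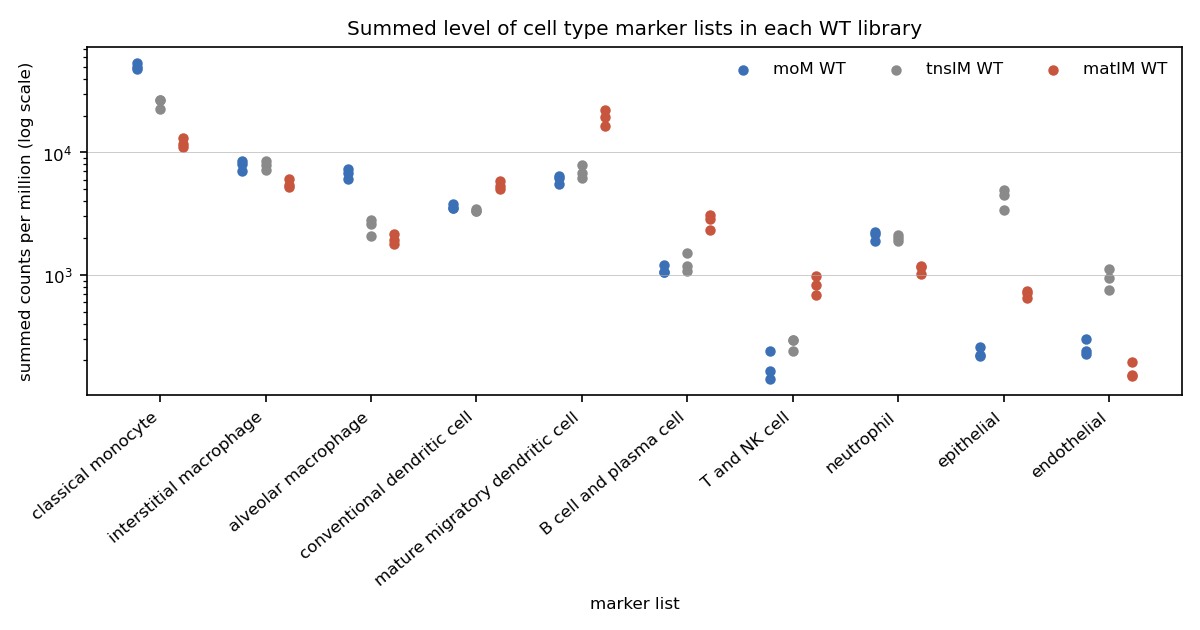
Summed CPM (log scale) of 10 lists of cell type markers in each of the 9 WT libraries, with moMs in blue, tnsIMs in grey and matIMs in red. Mature migratory dendritic cell genes summed to 16470 to 22390 in matIMs against 5521 to 6469 in moMs, and epithelial markers were highest in tnsIMs, at 3375 to 4932.

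Set beside the end points, tnsIMs did not stand at one place between them. In the order moM, tnsIM and matIM the means of *Ccl22* were 6.15, 134 and 2633 CPM, and those of *Fscn1* 1.4, 40.2 and 824 CPM. For *H2-Eb1* the means were 242, 3116 and 5902 CPM, and for *C1qb* 326, 863 and 751 CPM. *Cd177* was at 548, 65 and 10.8 CPM, and *Csf1r* at 2571, 2354 and 1473 CPM. These are the same matIM and moM libraries, and no test was made on the order.

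The comparison of matIMs with moMs was repeated in Ezr-KOm mice, whose 6 libraries are separate from the WT ones. *Ezr* was at 135 ± 37.4 CPM (SD, n = 3) in their matIMs and 232 ± 63.7 CPM in their moMs, below the WT means of 661 and 531 CPM. There 1984 genes were higher (12.5%) and 1695 lower (10.7%). Of the 3926 genes called in WT, 2971 were called in the same direction, which is 75.7% of the WT genes and 80.8% of the Ezr-KOm genes, and 0 were called in the opposite one. By sign alone 2109 of the 2116 genes higher in WT were higher and 1804 of the 1810 lower genes were lower. *Ccl22* differed by 8.27, *Ccr7* by 6.81, *Zbtb46* by 5.13, *Cd177* by -5.23 and *Hp* by -3.34 on the log2 scale. The difference between the genotypes in this contrast was tested by an interaction term, and 0 genes passed at an adjusted p under 0.05 by edgeR and 0 by DESeq2, with 268 at an unadjusted p under 0.05. A p that misses the threshold does not show that the genotypes were alike.

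**Figure D5:**
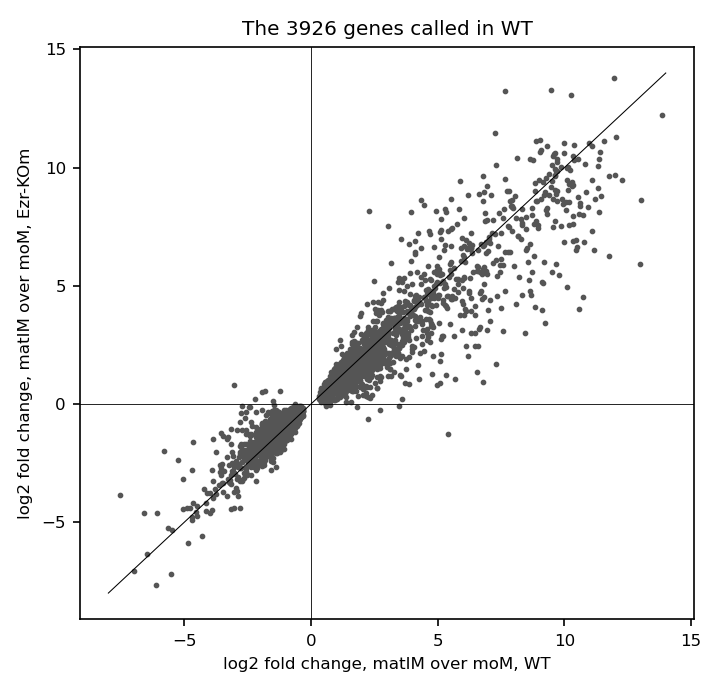
Log2 fold change of matIMs over moMs in Ezr-KOm mice against that in WT mice for the 3926 genes called in WT, with the line of equal values. 2109 of 2116 genes higher in WT lie above 0 and 1804 of 1810 lower genes lie below 0 in Ezr-KOm.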

How the data were processed

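RNA of cells sorted from perfused lungs 24 h after nebulized LPS was made into libraries with SMART-Seq v4 and Nextera XT, which do not mark strand, so reads of a gene and of an antisense or overlapping gene cannot be told apart. Per the labels and the study's methods, the authors aligned reads to GRCm39 with STAR 2.7.9a and deposited raw counts per gene, with no normalization. The 6 libraries compared held 18443205 to 25924018 counts, where 1 count is worth 0.0373 to 0.0569 CPM, the counts scaled to the library size.

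From these counts, genes were filtered with filterByExpr (count minimum 10), scaled by TMM and fitted in R 4.3.3 with the quasi-likelihood test of edgeR 4.0.16 over all 18 libraries in 6 groups, and matIM WT was contrasted with moM WT. A gene was called at a Benjamini-Hochberg adjusted p under 0.05 over the 15811 tested genes. Log2 fold changes are given in brackets after gene names, are of matIM over moM, and are edgeR's fitted values with its prior count of 0.125. Genes with at most 3 counts in each library of a population have only a lower bound of the fold. DESeq2 1.42.0, other scalings and filters, fewer libraries, a replicate block and leaving out each library were tried as alternatives. Promoters were read from GRCm39 with GENCODE M39, which is not the annotation release used for counting.

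The study gives 3 mice per genotype and 3 biological replicates, while the labels do not tie a library to a mouse. Same-numbered matIM and moM libraries deviated together (correlation of deviations from the group means 0.435, 0.166 and 0.476, against -0.418 to 0.00124 for different numbers). A fit with the replicate number as a block is therefore given where it changes the call of a named gene, and for some lists. Over the 18 libraries the blocked fit called 5002 genes, 3913 of them shared with the main fit. All other values come from the fit without the block. Genes were named by rule: the 12 of smallest p in each direction with 10 CPM or more in the higher population, the 8 of largest fold with 50 CPM or more, and, of the key genes and the 3 leading genes of each list, those that show what a group held. Predicted genes and pseudogenes were counted only. Members and lists were chosen with earlier results of these data known. Some genes that the rule names are not reported here.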

Additional observations from a re-analysis of the deposited data

How the results depend on the processing

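No called gene changed sign under any alternative tried, and the counts of genes called higher and lower stayed within 1.5 times of the values reported, except that genes higher by the study's limits were 1124 with at least 10 counts in each of the 6 libraries. Leaving out 1 library at a time gave 1599 to 1874 genes higher and 1465 to 1669 lower. With the replicate block in the fit of 18 libraries, 2615 genes were higher and 2387 lower, and the block changed no other call of a named gene than those of *Ezr* and *Xcr1*, with *Mki67* and *S100a8* passing in the blocked fit of the 6 libraries alone. *Tnf*, which was not called, ranged from -0.35 (without matIM replicate 1) to 0.26 (without moM replicate 1) on the log2 scale, with -0.18 without moM replicate 2 and -0.07 without moM replicate 3. Genes with few counts in moMs limit what the fold changes can show.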
